A study of Mus musculus with 8 samples.

Results

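Regions of open chromatin that lie at the ends of more than 1 gene were examined in conventional type 1 dendritic cells (cDC1) of mouse spleen. A region was included when it lay on chromosomes 1 to 19 and within 1 kb of an end of the span of at least 2 different protein-coding genes, by the RefSeq gene models of GRCm38.p6. This held for 1990 of the 59906 regions in the count table, which is 3.32%. Of these, 1944 lay at the ends of 2 genes and 46 at the ends of 3. They carried 1749 different sets of genes, because 219 sets had 2 regions each and 11 had 3, and regions of 1 set are not independent of each other. Another 10998 regions on these chromosomes lay at the end of 1 protein-coding gene. The remaining 46918, called other regions, lay at none or outside chromosomes 1 to 19. For 157 of the 1990 regions, the count of 2 genes rested on a predicted gene model (a name made of Gm and a number, or ending in Rik). Predicted models named LOC and a number were not included in that count.

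Accessibility had been measured by ATAC-seq, in which a transposase cuts open chromatin and tags it with sequencing adapters. The design set 4 libraries of sorted splenic cDC1 from WT mice against 4 from mice carrying CD11c-Cre and an Opa1 gene flanked by loxP sites, the group labelled OPA1KO and described as OPA1-deficient. CD11c-Cre is active in dendritic cells as a class and in some other CD11c-expressing cells, so the deletion is not confined to cDC1. The labels give the spleen as tissue and no in vivo or in vitro agent for either group. Age and sex of the mice, whether WT mice carried Cre or the floxed allele, the deleted part of the gene, and which animal gave which library are unstated in the labels. The p-values therefore cover the spread between libraries of a group, part of which may be technical.

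Neighbouring genes are often transcribed away from each other from start sites that lie close together. Such divergent pairs share a stretch of open, CpG-rich DNA, and transcription factors bound between the starts can serve both genes. Divergent pairs are common among housekeeping genes of DNA repair, RNA processing and the mitochondrion, nearly all of whose proteins are encoded in the nucleus. NRF1 and the ETS factor GABP are the best-known activators of nuclear genes of the respiratory chain and the mitochondrial ribosome. OPA1, the protein removed in the OPA1KO cells, is a dynamin-like GTPase that joins the inner membranes of fusing mitochondria and keeps cristae narrow.

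The DNA between the start sites was read for divergent pairs whose starts lie close together. In the table of RefSeq promoters on GRCm38.p6, 426 divergent pairs at these regions had 12 to 250 bases between their start sites, with a median of 104 bases and a median GC content of 64.7%. Printed here are pairs in which both genes serve mitochondria, further pairs of a mitochondrial gene whose stretch holds the NRF1 motif, and the immune pair Psmb9/Tap1. Morn5/Ndufa8 and Pmm2/Tmem186, which also have a mitochondrial gene and the NRF1 motif, are not printed. Each sequence is the plus strand of GRCm38, 5′ to 3′, from the base after the left start to the base before the right start. At Atp5j/Gabpa and Hspd1/Hspe1 the gene spans overlap, so the stretch lies between 1 pair of starts and not between the spans. Capitals mark exact matches, on either strand, to CGCATGCG (NRF1), CCGGAAG (ETS), GGGCGG (SP) or CCAAT (NFY).
Atp5j/Gabpa (chr16:84834977-84835123): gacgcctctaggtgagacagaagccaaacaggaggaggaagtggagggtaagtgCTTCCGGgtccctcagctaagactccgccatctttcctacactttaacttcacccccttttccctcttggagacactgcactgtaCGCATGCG
Hspd1/Hspe1 (chr1:55087933-55088147): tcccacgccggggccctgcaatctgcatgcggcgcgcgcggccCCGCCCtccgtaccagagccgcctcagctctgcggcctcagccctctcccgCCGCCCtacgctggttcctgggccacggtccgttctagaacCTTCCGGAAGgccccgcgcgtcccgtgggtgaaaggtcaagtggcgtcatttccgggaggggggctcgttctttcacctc
Sdhd/Timm8b (chr9:50603850-50603900): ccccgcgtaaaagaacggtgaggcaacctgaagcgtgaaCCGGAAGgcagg
Mrps12/Sars2 (chr7:28741822-28741967): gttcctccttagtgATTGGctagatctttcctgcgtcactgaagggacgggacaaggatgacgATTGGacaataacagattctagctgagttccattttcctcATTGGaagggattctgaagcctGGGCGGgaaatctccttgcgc
Mrpl46/Mrps11 (chr7:78783090-78783130): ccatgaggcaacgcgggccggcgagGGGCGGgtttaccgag
Mrpl32/Psma2 (chr13:14613038-14613241): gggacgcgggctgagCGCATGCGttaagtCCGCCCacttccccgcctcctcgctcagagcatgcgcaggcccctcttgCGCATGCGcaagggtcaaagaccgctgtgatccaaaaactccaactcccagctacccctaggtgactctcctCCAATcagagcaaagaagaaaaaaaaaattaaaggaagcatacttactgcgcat
Ndufa11/Vmac (chr17:56717700-56717761): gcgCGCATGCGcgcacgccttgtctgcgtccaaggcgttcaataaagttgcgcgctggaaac
Ttc19/Zswim7 (chr11:62281396-62281472): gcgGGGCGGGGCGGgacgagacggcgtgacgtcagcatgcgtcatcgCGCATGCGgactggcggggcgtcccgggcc
Psmb9/Tap1 (chr17:34187331-34187555): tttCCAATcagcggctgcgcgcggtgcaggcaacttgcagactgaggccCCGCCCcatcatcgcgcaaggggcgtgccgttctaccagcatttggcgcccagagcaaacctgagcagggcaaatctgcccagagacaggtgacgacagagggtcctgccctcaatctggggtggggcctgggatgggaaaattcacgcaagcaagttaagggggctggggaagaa

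These stretches differed in what they held. The NRF1 motif lay between the starts in 16 of the 426 pairs, and 6 of those 16 had a gene of the mitochondrial lists, which 74 of the 426 pairs had. Mrpl32, a protein of the large mitochondrial ribosomal subunit, and Psma2, a core subunit of the proteasome, had 2 copies between them. The stretch between Atp5j, which encodes a coupling factor of the ATP synthase, and Gabpa, which encodes the DNA-binding subunit of GABP, held 1 NRF1 match and 1 ETS match. At Hspd1/Hspe1, the genes of the mitochondrial chaperonin and its co-chaperonin, the capitals CTTCCGGAAG are 2 ETS matches on opposite strands that overlap. The Mrps12/Sars2 stretch held 3 NFY matches and no NRF1 or ETS match. A match is only a run of letters, and its absence says nothing about the factor.

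Total counts in regions ranged from 4660826 to 7590578 per library. Levels are given as CPM, the counts of a region relative to the total of its library, scaled to a common depth with TMM factors (0.947 to 1.03), and mean ± SD has n = 4 per group. The region at an end of Opa1 itself (chr16:29579132-29579622) belonged to 1 gene, and measured 47.0, 40.7, 42.9 and 37.9 CPM in the WT libraries and 34.6, 41.4, 38.0 and 43.0 CPM in the OPA1KO libraries. Without the position of the deletion, this does not check the genotype. Of the cDC1 markers fixed for this work, 21 of 23 had a region at an end, Itgae and Cd36 being without one, and their summed level was 465 to 501 CPM in WT and 477 to 510.3 CPM in OPA1KO. T cell markers had regions for 6 of 13 genes, with none at Cd3e, Cd3g or Lck, and summed to 99.8 to 124 CPM in WT and 96.3 to 120.1 CPM in OPA1KO. Red cell markers had regions for 8 of 13 genes, with none at Hba-a1 or Hba-a2, and summed to 79.8 to 86.9 CPM in WT and 82.9 to 104 CPM in OPA1KO. B cell markers (9 of 13 genes) summed to 66.6 to 79.4 CPM in WT and 68.5 to 82.2 CPM in OPA1KO, and neutrophil markers (9 of 13 genes) to 77.1 to 121 CPM and 76.5 to 109 CPM. Monocyte and macrophage markers had regions for 19 of 24 genes, with summed levels of 430.1 to 506 CPM in WT and 413 to 473 CPM in OPA1KO, so regions at ends of these genes were counted in the sorted cells as well. Of these markers, Axl and Cd68 had regions shared with a housekeeping gene, Axl/Hnrnpul1 at 137 and 63.7 CPM and Cd68/Eif4a1 at 95.4 CPM. Those levels cannot be assigned to the marker, so the sum is no measure of macrophage signal. The 4 regions that cDC1 markers share with another gene had 4.86 to 18.1 CPM. In a bulk sample, fewer cells of a type and less signal per cell cannot be told apart.

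Where strand was known, most of the shared regions had genes transcribed away from each other. Strand was known for both genes at 1476 of the 1990 regions. Of those, 960 (65.0%) were divergent and 379 (25.7%) tandem, with the end of 1 gene before the start of the next. Another 71 (4.81%) were convergent, with 2 transcript ends facing each other, and 66 (4.47%) had genes extending to the same side. The median distance between the gene ends was 143 bp in divergent pairs and 510.0 bp in tandem pairs. It was 369 bp in convergent pairs and 327 bp in same-side pairs. For the other 514 regions, strand was not given for at least 1 gene. Without regard to strand, the 2 spans were apart at 1351 regions, overlapped at 543 and lay to the same side at 96.

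Orientation went with level. The median of the mean CPM was 49.5 at divergent regions, 31.0 at same-side regions, 25.5 at tandem regions and 6.15 at convergent regions. Per kb of region, which allows for their different widths, the medians were 78.7, 50.1, 49.8 and 19.4 CPM. Convergent regions, where the facing ends are the ends of transcription, were thus near the level of the other regions, whose medians were 5.62 CPM and 18.01 CPM per kb. The quartiles of divergent regions were 24.8 and 84.9 CPM and those of convergent regions 3.90 and 11.5 CPM, so the ranges between the quartiles did not overlap.

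**Figure D1:**
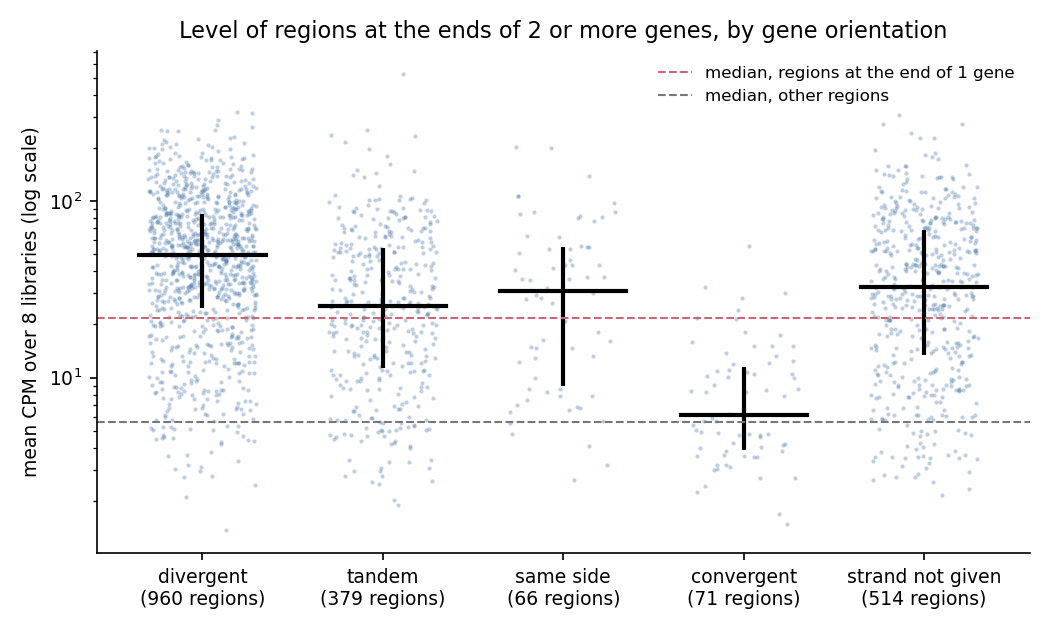
Mean CPM over the 8 libraries (log axis) for each of the 1990 regions, by the orientation of their genes; horizontal bars are medians and vertical bars the quartiles. Divergent regions have a median of 49.5 CPM, above the dashed line of regions at the end of 1 gene (21.7 CPM), and convergent regions one of 6.15 CPM, near that of other regions (5.62 CPM).

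Within divergent pairs, the open region usually reached across both start sites. Of 960 divergent regions, 652 (67.9%) covered both gene ends, 168 covered 1 and 140 neither. The centre of the region lay a median of 117 bp from the midpoint between the ends, and 65.9% of the centres lay within 200 bp of it. Regions over both ends had a median of 60.3 CPM (91.6 CPM per kb), those over 1 end 36.3 CPM (67.9 CPM per kb) and those over neither 12.04 CPM (37.5 CPM per kb). Where the ends were apart by more than 100 and up to 300 bp, 160 of 189 regions (84.7%) covered both, with a median of 79.7 CPM. By more than 300 bp, 53 of 118 (44.9%) did, with a median of 113 CPM. A region over ends further apart has to be wider, and per kb these medians were closer, at 118 and 124 CPM. Across the 614 divergent regions with spans apart, the distance between the ends had a Spearman correlation of 0.154 with CPM and of 0.0842 with region width, regions being no independent replicates.

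The Ndufa11/Vmac pair departed from this order. It was not alone: Trp53/Wrap53 had 20.4 CPM in the region over both ends and 38.1 CPM in a neighbour over neither. How many pairs did so was not counted. Ndufa11 encodes an accessory subunit of respiratory complex I. The region over its start site and that of Vmac (chr17:56717586-56717896) had a mean of 14.96 CPM (48.3 CPM per kb), while its neighbour at chr17:56716704-56717419 had 64.4 CPM (90.001 CPM per kb) with neither gene end in it. The higher of these regions is therefore not the one over the printed sequence.

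Compared with all promoters, those at divergent shared regions were richer in CpG and in short motifs of ubiquitous activators. Windows of 300 bases, from 250 before to 50 after a start, were available for 1804 starts of 1536 genes at divergent shared regions, beside 20085 windows of protein-coding genes on chromosomes 1 to 19. Median GC content was 63.0% against 57.0%, and the ratio of observed to expected CpG was 0.854 against 0.586. It was 0.772 for 7269 windows at regions of 1 gene and 0.237 for 8785 windows without a region. On either strand, the ETS motif CCGGAAG was in 27.8% of divergent windows, in 17.2% of windows at regions of 1 gene and in 11.9% of all. YY1's AAGATGGC was in 7.76%, 3.98% and 3.06%, and the NRF1 motif CGCATGCG in 5.04%, 4.13% and 2.54%. The ZBTB33 motif CTCGCGAG was in 3.55%, 1.77% and 1.21%.

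The SP and NFY motifs were about as frequent as at regions of 1 gene. GGGCGG, bound by SP factors, was in 66.7% of divergent windows and 67.4% of windows at regions of 1 gene, against 47.0% of all windows. CCAAT, bound by NFY, was in 39.3%, 37.6% and 38.1%. The TATA box (TATAAA) was in 4.32% of divergent windows, 6.78% of those at regions of 1 gene and 12.7% of all, and in 20.8% of windows without a region. The interferon element AAANNGAAA, N being any base, was in 6.38%, 7.72% and 9.59%, and PU.1's GAGGAAG in 11.03%, 13.7% and 13.2%. In the 135 windows of mitochondrial genes at divergent shared regions, the ETS motif reached 34.8% (29.5% of 302 windows of mitochondrial genes at regions of 1 gene), YY1 16.3% (8.61%), NRF1 8.89% (7.95%) and ZBTB33 7.41% (1.99%). Windows of 1 divergent pair overlap where the starts are close, so these shares describe the windows and carry no test.

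**Figure D2:**
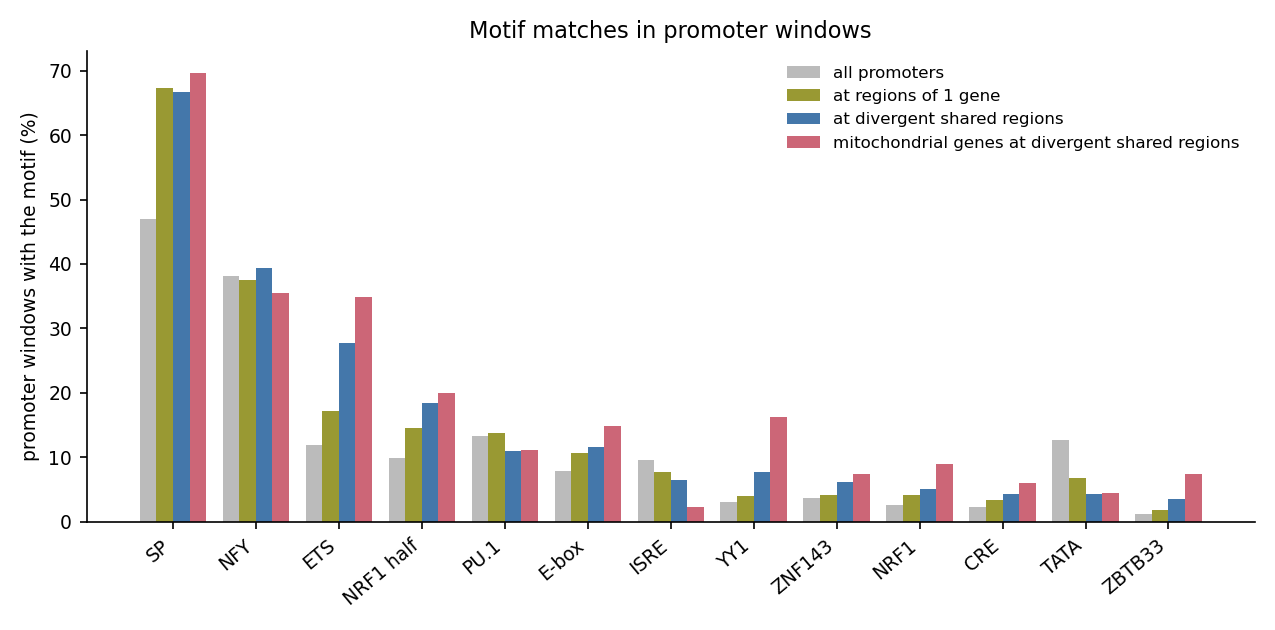
Percent of promoter windows with an exact match to each motif, for all promoters, promoters at regions of 1 gene, promoters at divergent shared regions, and promoters of mitochondrial genes at divergent shared regions. The ETS bars step up from 11.9% to 17.2%, 27.8% and 34.8%, while the TATA bars step down from 12.7% to 6.78% and 4.32%, with 4.44% for the mitochondrial genes.

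As a class, shared regions were wide and strong. Their median width was 542.5 bp, against 481 bp for regions of 1 gene and 300 bp for other regions, and width and CPM had a Spearman correlation of 0.698 over the 1990 regions. Their median level was 37.5 CPM (62.9 CPM per kb), against 21.7 CPM (41.9 CPM per kb) at the end of 1 gene. Of the 1990, 89.5% exceeded the median of all regions (6.67 CPM), and 186 were among the 1000 regions with the highest mean CPM. The median biological coefficient of variation was 0.117, against 0.136 for regions of 1 gene. At matched level the difference was small: between 40 and 80 CPM it was 0.107 against 0.108, and between 5 and 10 CPM 0.182 against 0.185. As a set, shared regions moved more between libraries than regions of 1 gene under this scaling. Their median log2 deviation per library had a pooled within-group SD of 0.0409, against 0.0221 for regions of 1 gene. It was 0.00844 over all tested regions. The TMM factors were fitted on that whole set, which holds its value low, so it is no independent comparison. With 3.32% of the regions, the shared ones held 10.3%, 10.2%, 10.1% and 10.3% of the counts in the WT libraries and 9.98%, 10.3%, 10.3% and 10.1% in the OPA1KO libraries, so the groups overlapped (10.2% ± 0.0712 and 10.2% ± 0.138).

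The highest level was that of Gm20783/LOC108167694 (chr9:124422813-124425999), a tandem pair of predicted models under a region 3186 bp wide, at 528 CPM. Per kb it had 166 CPM, less than the divergent regions ranked after it. Dcaf6/Mpc2 had 319 CPM (297 CPM per kb), Mpc2 encoding a subunit of the mitochondrial pyruvate carrier, and Hdgfl2/Ubxn6 had 317 CPM (357 CPM per kb). Khsrp/Slc25a41 followed with 306 CPM, Khsrp encoding an RNA-binding protein and Slc25a41 an ATP carrier of the inner membrane. The remaining 6 of the 10 highest were Fam72a/Srgap2, Cdca2/Kctd9, Izumo4/Mob3a, Aasdhppt/Kbtbd3, Cep57/Fam76b and Fbrs/Prr14, from 289 down to 254 CPM. Gm20783/LOC108167694 stood apart from the region after it by more than the spread between libraries. From Dcaf6/Mpc2 down, neighbours in this order differed by less than the larger SD of the pair: Hdgfl2/Ubxn6, for example, had 316 ± 18.9 CPM in WT and 318 ± 20.7 CPM in OPA1KO, and Dcaf6/Mpc2 322 ± 25.2 CPM in WT and 316 ± 20.05 CPM in OPA1KO.

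At the other end, the lowest tested regions were Fndc11/Srms (1.36 CPM), Vps25/Wnk4 (2.03 CPM) and 1 of the regions of Eif2ak2/Gm26637 (2.097 CPM). At Fndc11/Srms, whose second gene encodes a Src-family-like kinase, the levels were 0, 1.87, 0.845 and 0.718 CPM in the WT libraries and 1.99, 1.81, 2.01 and 1.64 CPM in the OPA1KO libraries, with the 0 standing for no count in WT replicate 1. No fold is read from values this low. Eif2ak2, the kinase PKR that senses double-stranded RNA, had a second shared region at 10.6 CPM.

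Genes of the mitochondrion, of DNA repair and of ribosome assembly had high shares at shared regions, and the immune lists had shares below that of all genes. Of 11719 genes with a region at an end, 3344 (28.5%) were at a shared region. The share was 56.0% for subunits and assembly factors of respiratory complex I (28 of 50), 42.7% for complexes II to V (32 of 75), 48.2% for the mitochondrial ribosome (41 of 85) and 50.0% for mitochondrial import, chaperones and proteases (26 of 52). It was 60.9% for histone genes (28 of 46), which lie in dense clusters, 54.1% for ribosome biogenesis and tRNA processing (66 of 122) and 47.7% for DNA replication and repair (71 of 149). In contrast, it was 20.6% for mitochondrial dynamics and cristae (7 of 34), the list that holds Opa1, 27.1% for mitochondrial carriers (13 of 48), and 28.0% for enzymes of the tricarboxylic acid cycle or of fatty acid oxidation (14 of 50). Zinc finger genes stood at 19.4% (67 of 345), antigen presentation at 23.5% (8 of 34) and the type I interferon response at 23.3% (10 of 43). Over all mitochondrial lists it was 40.3% (208 of 516), and over all cell type markers 11.8% (11 of 93). The 2 genes of a pair enter together where both are listed, and gene density was not allowed for, so these shares are descriptions.

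**Figure D3:**
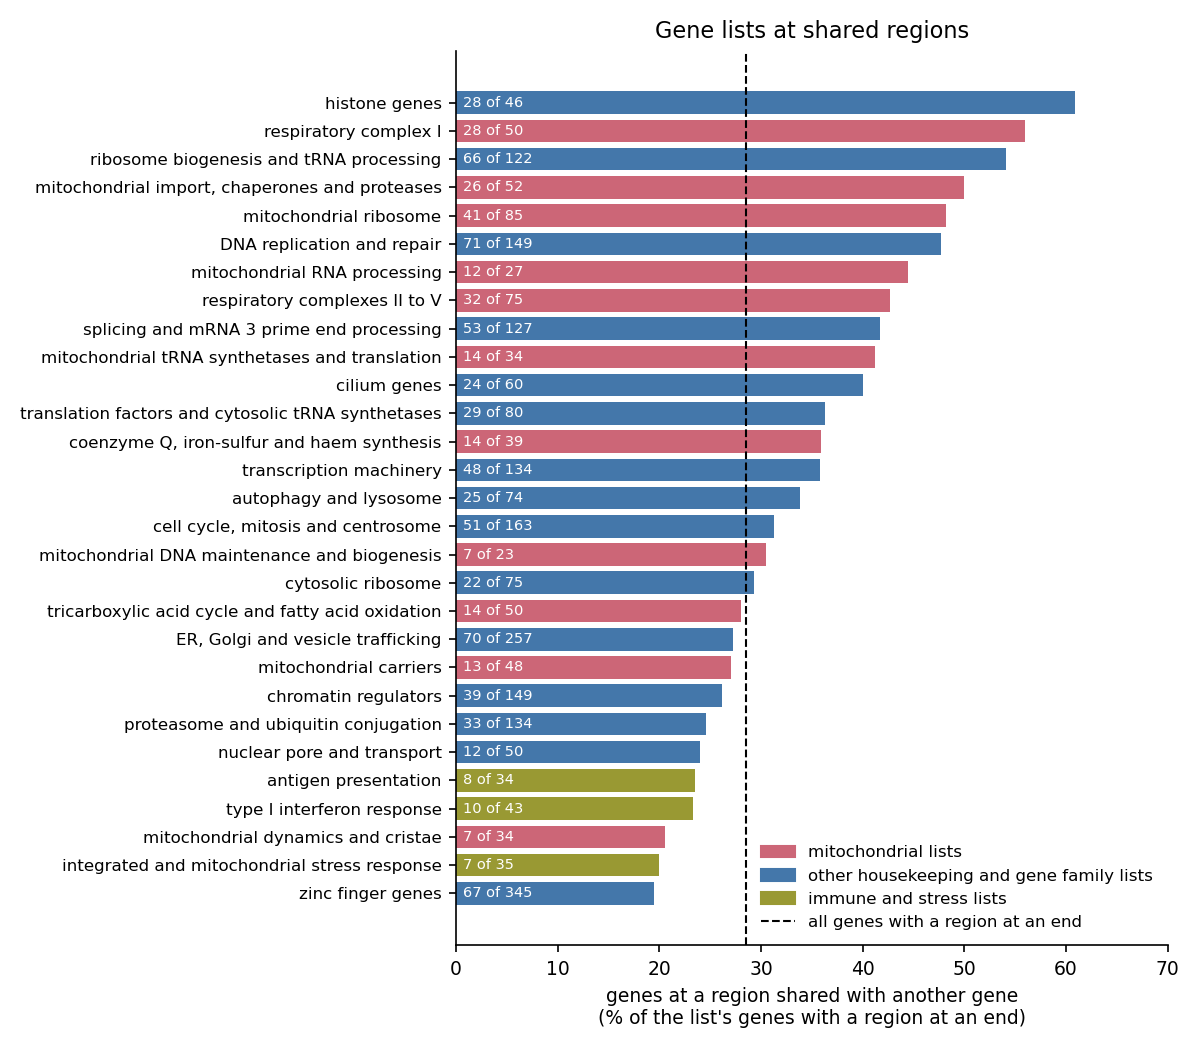
For the mitochondrial, housekeeping, gene family, immune and stress lists, cell type markers not being drawn, percent of the genes with a region at an end that lie at a shared region, with the numbers of genes in the bars; the dashed line is 28.5%, the share over all 11719 genes. Histone genes (60.9%) and complex I (56.0%) lead, and zinc finger genes (19.4%) are last of the lists drawn.

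Mitochondrial genes took part in 223 shared regions with 206 gene sets, of which 130 of the 170 with known strand were divergent. At 9 regions both genes were in a mitochondrial list, although 1 list holds regulators such as Gabpa that act in the nucleus. A few partners belonged to another housekeeping list: 7 regions each had a partner in splicing, in ribosome biogenesis and in the cell cycle, and 6 had one in DNA replication and repair. The 223 regions had a median of 44.9 CPM and ranged from 4.47 to 319 CPM.

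Shared regions with a gene of complex I ranged from 8.03 to 138 CPM, and those with a gene of complexes II to V from 9.92 to 148 CPM. These levels cannot be assigned to 1 gene of a pair. Foxred1/Srpr (chr9:35210797-35211377), the pair of a complex I assembly factor and the receptor for the signal recognition particle, measured 140.1, 150.2, 135 and 161 CPM in the WT libraries and 125, 130.4, 135 and 130.1 CPM in the OPA1KO libraries (log2 fold change −0.17 ± 0.08, edgeR adjusted p = 0.759). Its groups overlapped at 135 CPM, as WT replicate 3 and OPA1KO replicate 3 lay together. Dlg2/Tmem126b, with another complex I assembly factor, was almost level across libraries at 139.6 ± 2.08 CPM in WT and 135 ± 3.95 CPM in OPA1KO. Mrpl36/Ndufs6 joins a mitochondrial ribosomal protein to an accessory subunit of complex I and measured 48.7, 46.8, 46.2 and 40.2 CPM in the WT libraries and 35.02, 40.6, 40.8 and 43.2 CPM in the OPA1KO libraries. There WT replicate 4 lay below 3 of the OPA1KO libraries, and the difference did not pass (log2 fold change −0.19 ± 0.11, edgeR adjusted p = 0.826). Gdf9/Uqcrq, with a subunit of complex III, had 146 ± 15.7 CPM in WT and 138 ± 13.4 CPM in OPA1KO, and Gm10767/Uqcrb, with another, 39.7 ± 5.601 CPM in WT and 32.5 ± 2.88 CPM in OPA1KO (log2 fold change −0.29 ± 0.12, edgeR adjusted p = 0.717).

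Atp5j/Gabpa (chr16:84834671-84835789) was the highest of the regions with both genes listed. It measured 156, 152, 155 and 157 CPM in the WT libraries and 133, 146, 146 and 141 CPM in the OPA1KO libraries. All 4 WT libraries lay above the 4 OPA1KO libraries, by a small margin that did not pass the test (log2 fold change −0.13 ± 0.08, edgeR adjusted p = 0.825). Mrpl47/Ndufb5, the pair of a ribosomal protein of the large subunit and a complex I subunit, measured 115, 122, 109 and 108 CPM in the WT libraries and 113, 114, 125 and 103 CPM in the OPA1KO libraries, with fully mixed groups (log2 fold change 0.00 ± 0.08, edgeR adjusted p = 0.999). Sdhd/Timm8b pairs the membrane anchor of complex II with a small chaperone of the intermembrane space and measured 47.5, 58.6, 60.6 and 50.3 CPM in the WT libraries and 48.8, 51.2, 50.7 and 48.4 CPM in the OPA1KO libraries. WT replicates 2 and 3 were the high libraries there, while WT replicate 4 lay among the OPA1KO libraries and WT replicate 1 below them (log2 fold change −0.12 ± 0.11, edgeR adjusted p = 0.8995).

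For the mitochondrial ribosome and translation, Mrpl46/Mrps11 (chr7:78782855-78783426), proteins of the large and the small subunit, measured 38.04, 35.9, 30.8 and 36.3 CPM in the WT libraries and 26.1, 31.02, 30.2 and 26.8 CPM in the OPA1KO libraries. WT replicate 3 overlapped with OPA1KO replicate 2, and the other WT libraries were higher than every OPA1KO library (log2 fold change −0.31 ± 0.13, edgeR adjusted p = 0.689). Mrps12/Sars2, the pair of a small-subunit protein and the mitochondrial seryl-tRNA synthetase, had 71.3 ± 4.65 CPM in WT and 67.6 ± 5.72 CPM in OPA1KO and overlapping groups. Mrps18b/Ppp1r10 and Mrpl48/Rab6a were the highest of the ribosomal list, with means of 188 and 126 CPM. Mrpl51/Ncapd2, a large-subunit protein beside a condensin subunit, was one of the few with separated groups, at 75.8, 79.4, 77.3 and 78.2 CPM in the WT libraries and 80.2, 85.3, 88.96 and 81.6 CPM in the OPA1KO libraries. The gap there was under 1 CPM, between WT replicate 2 and OPA1KO replicate 1 (log2 fold change 0.11 ± 0.09, edgeR adjusted p = 0.882). Fars2/Lyrm4, a mitochondrial tRNA synthetase and a partner of iron-sulfur cluster synthesis, had 68.9 ± 4.97 CPM in WT and 66.3 ± 4.75 CPM in OPA1KO, and Hars/Hars2, the cytosolic and mitochondrial histidyl-tRNA synthetases, 29.8 ± 5.22 CPM in WT and 27.2 ± 2.97 CPM in OPA1KO.

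Among import, protein folding and metabolism genes, Hspd1/Hspe1 (chr1:55087524-55088450) measured 108, 94.98, 109 and 95.1 CPM in the WT libraries and 90.7, 118, 120.1 and 123 CPM in the OPA1KO libraries. OPA1KO replicate 1 was below every WT library while the other OPA1KO libraries were above every WT library (log2 fold change 0.15 ± 0.09, edgeR adjusted p = 0.836). Nectin2/Tomm40, with the pore of the outer-membrane import complex, had a mean of 216 CPM, and Mastl/Yme1l1, with the inner-membrane protease that also cleaves OPA1, 138 CPM, in each case with a log2 fold change between −0.03 and 0.01. Hadha/Hadhb, the subunits of the trifunctional enzyme of fatty acid oxidation, measured 34.7, 32.3, 28.3 and 24.8 CPM in the WT libraries and 34.6, 30.7, 30.6 and 24.6 CPM in the OPA1KO libraries, a range that the groups shared. Etfdh and Mdh2, enzymes of electron transfer from fatty acid oxidation and of the tricarboxylic acid cycle, were at regions with means of 181 and 113 CPM. From the dynamics list, Emg1/Phb2, with a prohibitin of the inner membrane, had 78.1 ± 1.899 CPM in WT and 80.6 ± 4.002 CPM in OPA1KO.

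**Figure D4:**
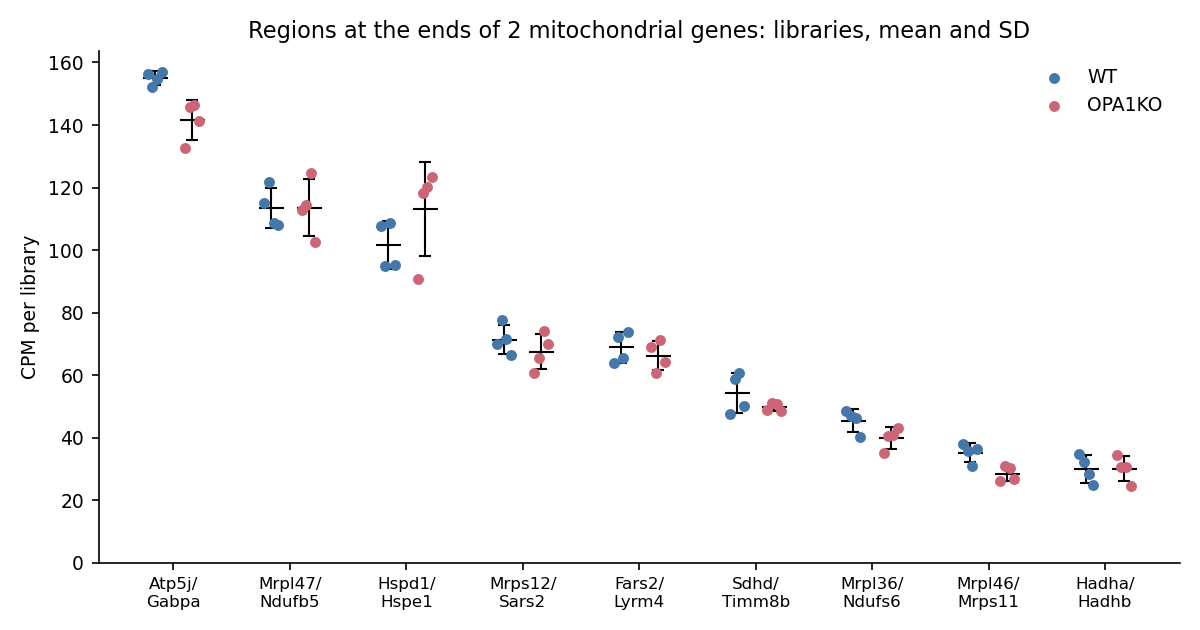
CPM in each library (points) with mean and SD (black) at the 9 regions where both genes are in a mitochondrial list, WT in blue and OPA1KO in red. At Atp5j/Gabpa the 4 WT points lie above the 4 OPA1KO points; in the other 8 pairs the points of the groups overlap.

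Well-known neighbouring pairs were looked up from a list of 22, of which 15 had a shared region. Atm/Npat, the DNA damage kinase beside an activator of histone genes, measured 149, 169, 139.8 and 169 CPM in the WT libraries and 162, 167, 168 and 162 CPM in the OPA1KO libraries. Its groups overlapped. Mcm4/Prkdc, a subunit of the replicative helicase beside the kinase of DNA end joining, had 138 ± 6.88 CPM in WT and 132 ± 5.24 CPM in OPA1KO, and Paics/Ppat, enzymes of purine synthesis, 117 ± 9.19 CPM in WT and 109 ± 5.95 CPM in OPA1KO. Trp53/Wrap53 had 2 regions, at means of 38.1 and 20.4 CPM, as did Dalrd3/Ndufaf3 (64.04 and 8.03 CPM). Surf1/Surf2, with an assembly factor of cytochrome c oxidase, had a mean of 17.1 CPM, and Nthl1/Tsc2, a DNA glycosylase beside an inhibitor of mTORC1, 9.56 CPM. The 7 pairs without a shared region by the 1 kb rule were Trmt10c/Pcnp, Cyc1/Sharpin, Psme1/Psme2, Psmb10/Ctrl, Mtif2/Ccdc88a, Acat1/Cul5 and Pccb/Msl2.

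Immune pairs were fewer and mostly lower. Psmb9/Tap1, the immunoproteasome subunit and the peptide transporter of class I presentation, measured 57.97, 64.4, 52.8 and 62.1 CPM in the WT libraries and 63.4, 58.2, 62.4 and 53.3 CPM in the OPA1KO libraries over the printed stretch. The groups were fully mixed (log2 fold change −0.00 ± 0.10, edgeR adjusted p = 1.00). Psme2/Rnf31, with a subunit of the proteasome activator and the catalytic subunit of the linear ubiquitin ligase, had 174 ± 22.1 CPM in WT and 168 ± 12.7 CPM in OPA1KO, the highest of the 10 regions of antigen presentation. Dtx3l/Parp9, interferon-induced partners, had a mean of 10.3 CPM and Ifit1/Ifit1bl2 one of 9.49 CPM, while Bcl2l12/Irf3 and Irf9/Rnf31, with factors of interferon signalling, had 43.2 and 45.2 CPM. Of the stress response genes, Ddit3/Mbd6, with the factor CHOP, had 146 ± 13.6 CPM in WT and 154 ± 21.04 CPM in OPA1KO, and Mob1a/Mthfd2, with a mitochondrial folate enzyme, 58.04 ± 4.64 CPM in WT and 64.9 ± 5.603 CPM in OPA1KO. At the 11 stress response regions 8 log2 fold changes were positive and 3 negative, with a median of 0.12 (−0.03 over all 1987 tested shared regions). At unadjusted p under 0.05 there were 0. These 11 regions came from only 7 genes of the list, as Ppp1r15a, Eif2ak2 and Cebpg had more than 1 region each. The signs are therefore not independent, and a direction for the list was not tested.

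Few cell type markers lay at shared regions. The cDC1 markers did so with 4 regions, Fyco1/Xcr1 (18.1 CPM), Abhd16b/Zbtb46 (12.7 CPM), Naaa/Ppef2 (10.9 CPM) and Cap1/Ppt1 (4.86 CPM). At Fyco1/Xcr1, where Xcr1 encodes the chemokine receptor that defines cDC1, the levels were 14.3, 22.5, 15.6 and 20.3 CPM in the WT libraries and 20.4, 12.5, 18.8 and 20.5 CPM in the OPA1KO libraries, with overlapping groups. Cd68/Eif4a1 (95.4 CPM) and the higher region of Axl/Hnrnpul1 (137 CPM) were the strongest among macrophage markers, but in each case the region is shared with a housekeeping gene, so its level cannot be assigned to the marker. A level could not be assigned to 1 gene of the pair either at Arhgef1/Cd79a (21.3 CPM), Cd4/Gpr162 (3.59 CPM) or Lat/Spns1 (4.36 CPM). Over all 12 marker regions, 6 log2 fold changes were positive and 6 negative.

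The comparison of OPA1KO with WT asked whether accessibility at these regions changed when OPA1 was deleted. Of the 1987 tested regions (3 fell below the count filter), 0 passed an edgeR adjusted p of 0.05, where 0.0203% of all 59247 tested regions did, and the smallest adjusted p was 0.416. DESeq2 and limma-voom also called 0 of them. At an unadjusted p under 0.05 there were 66 (3.32%), against 6.38% of all tested regions. Of these, 18 were higher in OPA1KO (background 2.92%) and 48 lower (background 3.46%), so the lower ones made up 72.7%. That share rested on the scaling: it was 44.9% (38 higher, 31 lower) with TMM factors from gene-end regions alone, 51.5% (33 and 35) with loess offsets and 55.1% (31 and 38) with total counts. Leaving out WT replicate 2, whose shared regions had the highest median level of the 8 libraries, gave 33 higher and 81 lower, and leaving out WT replicate 1 gave 29 and 44.

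Log2 fold changes of the shared regions were small. Their median was −0.03, as at regions of 1 gene (−0.03), beside 0.00 over all tested regions, with 797 above 0 and 1190 below. The central 90% of values lay between −0.28 and 0.24, where those of the other regions spanned −0.52 to 0.57. This shift also rested on the scaling: the median was 0.00 with TMM factors from gene-end regions alone, with loess offsets and with total counts, and 0.00 without WT replicate 2. The 41 regions past 0.5 on the log2 scale had a median of 3.49 CPM and none above 15.9 CPM, so they sat where counts are lowest. Of these, 3 had fitted changes past 2-fold, Fndc11/Srms, Mog/Zfp57 and Ppp2cb/Ubxn8, none with a mean above 2.74 CPM. They were named after their values were seen. Between 40 and 80 CPM, 2.83% of shared regions had an unadjusted p under 0.05, against 3.45% of regions of 1 gene. Between 10 and 20 CPM it was 3.23% against 4.95%. Between 80 and 160 CPM the order was reversed, at 2.59% against 2.43%.

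**Figure D5:**
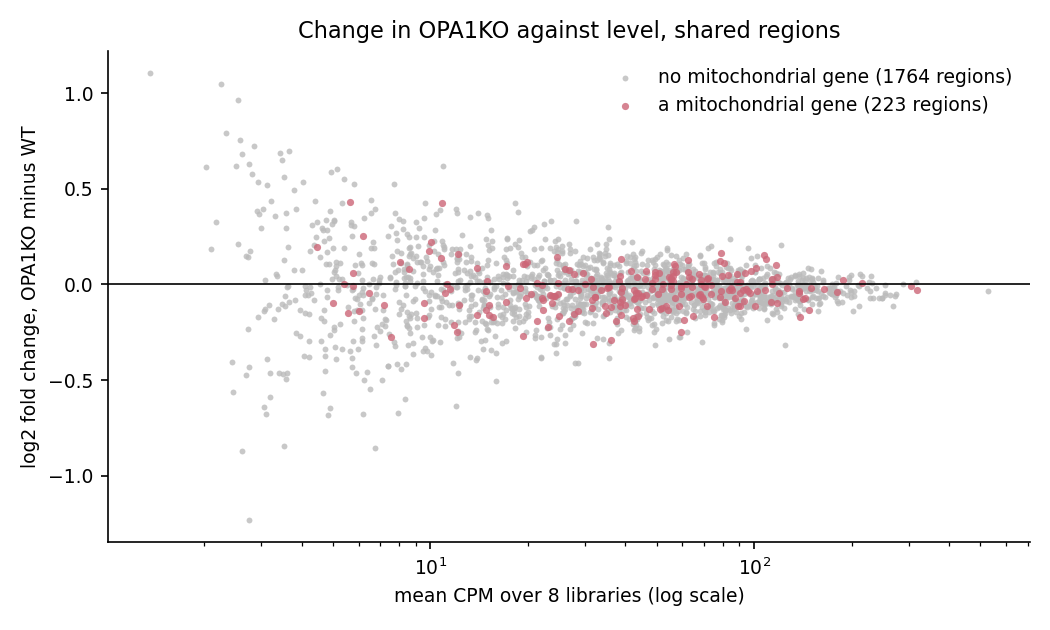
Log2 fold change, OPA1KO minus WT, against mean CPM (log axis) for the 1987 tested shared regions; red points are the 223 regions with a mitochondrial gene. The spread narrows as the level rises, no point passed the adjusted threshold, and the red points lie between −0.31 and 0.43.

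No region with a mitochondrial gene passed the test. Of the 223, 79 log2 fold changes were positive and 144 negative, with a median of −0.03, and 0 were called by edgeR, with 4 at an unadjusted p under 0.05. The 1764 shared regions without such a gene had 718 positive and 1046 negative values, a median of −0.02, and 62 at that p. By role, the medians were −0.02 for complex I (10 positive, 21 negative), −0.02 for complexes II to V (15 and 18), −0.03 for the mitochondrial ribosome (20 and 25), −0.05 for import and chaperones (9 and 18) and −0.09 for dynamics and cristae (4 and 5). The excess of negative signs also moved with the scaling: with TMM factors from gene-end regions, 111 of the 223 were negative, and with loess offsets 116.

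Groups did not overlap at 64 shared regions, 24 higher in OPA1KO, where 1.84% of all tested regions were separated in this direction, and 40 lower, where 2.11% were. These are 3.22% of the shared regions together, near the 3.25% of regions of 1 gene. Chtf18/Rpusd1 (chr17:25727264-25727861), the divergent pair of a clamp loader subunit for sister chromatid cohesion and an RNA pseudouridine synthase family member, had the smallest p among the higher ones whose mean was at or above the median of the shared regions (37.5 CPM), the limit for naming separated regions in either direction. It measured 74.9, 80.3, 77.9 and 76.5 CPM in the WT libraries and 96.95, 88.3, 96.1 and 83.2 CPM in the OPA1KO libraries (log2 fold change 0.24 ± 0.09, edgeR adjusted p = 0.615). Acaa1a/Myd88, a peroxisomal thiolase beside the adaptor of Toll-like receptors, measured 94.3, 86.9, 89.1 and 86.3 CPM in the WT libraries and 97.1, 113, 98.2 and 99.6 CPM in the OPA1KO libraries. OPA1KO replicate 2 was the high library there, and the other OPA1KO libraries began just above WT replicate 1 (log2 fold change 0.19 ± 0.09, edgeR adjusted p = 0.738). Gm38529/Per3, with a gene of the circadian clock, had 68.2 ± 3.799 CPM in WT and 78.5 ± 4.26 CPM in OPA1KO. Plagl2/Pofut1, a zinc finger factor and the O-fucosyltransferase that modifies Notch, had 50.5 ± 1.09 CPM in WT and 57.2 ± 2.04 CPM in OPA1KO, and Alg2/Sec61b, genes of glycan assembly and the protein translocon of the endoplasmic reticulum, 52.2 ± 1.77 CPM in WT and 56.2 ± 0.781 CPM in OPA1KO.

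Separated in the other direction at or above that level, Gm52006/Zfp36l1 (chr12:80112808-80113491), with a protein that promotes decay of AU-rich mRNAs, measured 73.5, 69.9, 77.5 and 83.99 CPM in the WT libraries and 55.2, 61.7, 69.1 and 61.5 CPM in the OPA1KO libraries. WT replicate 2 and OPA1KO replicate 3 were less than 1 CPM apart (log2 fold change −0.30 ± 0.10, edgeR adjusted p = 0.523). Cfap206/Slc35a1, a ciliary gene beside the Golgi transporter of CMP-sialic acid, had 59.9 ± 4.98 CPM in WT and 49.1 ± 3.601 CPM in OPA1KO. Ilk/Rrp8, the integrin-linked kinase beside a factor of ribosomal RNA modification, measured 98.9, 95.4, 109 and 106 CPM in the WT libraries and 90.4, 80.4, 88.96 and 88.3 CPM in the OPA1KO libraries. Brix1/Rad1, a ribosome assembly factor beside a checkpoint clamp subunit, measured 66.04, 66.6, 66.9 and 69.99 CPM in the WT libraries and 60.1, 55.5, 56.1 and 54.8 CPM in the OPA1KO libraries, with tight values within WT (log2 fold change −0.25 ± 0.09, edgeR adjusted p = 0.626). Hcfc1r1/Thoc6, with a subunit of the mRNA export complex THO, had 53.7 ± 1.48 CPM in WT and 45.7 ± 2.63 CPM in OPA1KO, Gm41291/Mtdh 80.6 ± 5.43 CPM in WT and 70.2 ± 2.32 CPM in OPA1KO, Atp6v1a/Naa50, with the catalytic subunit of the lysosomal proton pump, 47.7 ± 4.31 CPM in WT and 40.7 ± 1.87 CPM in OPA1KO, and Dnajc2/Psmc2, with a proteasome ATPase, 46.1 ± 2.62 CPM in WT and 39.4 ± 3.52 CPM in OPA1KO. All had an edgeR adjusted p above 0.05, the smallest of the 14 regions named for separation being 0.523 at Gm52006/Zfp36l1.

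The 3 shared regions with the smallest p, chosen after the values were seen, were lower in mean in OPA1KO and overlapped or nearly so. Eny2/Nudcd1 (chr15:44427381-44428548), with a subunit of the SAGA and mRNA export complexes, measured 156, 121, 142 and 135 CPM in the WT libraries and 95.96, 106, 113 and 130.3 CPM in the OPA1KO libraries. OPA1KO replicate 4 lay above WT replicate 2 (log2 fold change −0.32 ± 0.09, edgeR adjusted p = 0.416). Aspa/Spata22 measured 5.48, 8.58, 12.5 and 8.26 CPM in the WT libraries and 4.41, 4.898, 5.37 and 4.27 CPM in the OPA1KO libraries, so that its lowest WT library was only just above the highest OPA1KO library, at counts a small fraction of those at Eny2/Nudcd1 (log2 fold change −0.85 ± 0.25, edgeR adjusted p = 0.423). Mvp/Pagr1a, the major vault protein beside a subunit of histone methyltransferase complexes, measured 17.04, 15.1, 10.8 and 15.4 CPM in the WT libraries and 10.7, 6.71, 9.39 and 10.8 CPM in the OPA1KO libraries (log2 fold change −0.63 ± 0.20, edgeR adjusted p = 0.467). There WT replicate 3 was level with the upper OPA1KO libraries.

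At low level, some list members with the smallest p of their list differed more in size but likewise did not pass. Cdc26/Slc31a1, a convergent pair of an anaphase-promoting complex subunit and the copper importer, measured 9.43, 10.9, 4.43 and 9.33 CPM in the WT libraries and 12.8, 13.97, 15.6 and 10.8 CPM in the OPA1KO libraries (log2 fold change 0.62 ± 0.22, edgeR adjusted p = 0.566). H2ac11/H4c9, neighbouring histone genes, measured 20.1, 17.8, 21.3 and 15.4 CPM in the WT libraries and 12.96, 12.2, 11.3 and 16.2 CPM in the OPA1KO libraries (log2 fold change −0.50 ± 0.17, edgeR adjusted p = 0.557). WT replicate 4 fell within the OPA1KO range. Histone genes made up both partners at 17 shared regions, zinc finger genes at 12, and the 20 tested histone regions had a median log2 fold change of 0.02.

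Of the 46 regions at 3 genes, the 4 with the highest mean CPM were taken, a choice among equals made after the values were seen. LOC115486880/Psme3ip1/Rspry1 had 139 ± 8.78 CPM in WT and 137 ± 11.7 CPM in OPA1KO, Lmnb2/Timm13/Tmprss9 103 ± 7.501 CPM in WT and 114 ± 5.302 CPM in OPA1KO, Atf5/Il4i1b/Nup62 107 ± 6.59 CPM in WT and 107 ± 5.43 CPM in OPA1KO and Jmjd8/Rhbdl1/Stub1 93.1 ± 14.8 CPM in WT and 89.1 ± 6.06 CPM in OPA1KO. Atf5 encodes a factor of the mitochondrial stress response and Timm13 a small import chaperone. At each of them the groups overlapped. The 1 kb limit divides a continuum: just inside it were Ccdc82/Jrkl (996 bp from its second gene, 41.5 ± 4.35 CPM in WT), Actr1a/Sufu (998 bp, 19.7 ± 3.02 CPM) and Ak5/Zzz3 (999 bp, 2.13 ± 0.741 CPM). Just outside were Cpsf3/Itgb1bp1 (1001 bp, 37.6 ± 6.01 CPM), Brwd1/Psmg1 (1002 bp, 34.6 ± 2.71 CPM) and Tubgcp4/Zscan29 (1003 bp, 3.57 ± 1.64 CPM).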

How the data were processed

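The deposited values are raw counts per region for 8 ATAC-seq libraries, made by the authors; each column was matched to its sample by the library name that the labels give. The submitters' processing notes list MACS2 2.1.0.20150603, bedtools, SAMtools, Picard 1.65 and cutadapt 1.9, and the builds mm10 and GRCm38; their settings, the merging of regions and any shift of read ends are not given in the sources used here. Coordinates are those of the table, whose base (0 or 1) was not given either.

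The test was that of edgeR 4.0.16 (R 4.3.3; filterByExpr, TMM factors, robust quasi-likelihood fit, no covariates) over the whole table, with Benjamini-Hochberg adjustment over 59247 tested regions and calls at 0.05. The standard error is the absolute log2 fold change over the square root of F. The procedure was tested on simulated data. Gene spans came from a RefSeq table of GRCm38.p6 without strand; strand, start sites and sequences came from RefSeq promoters of the same build. Those start sites can differ from the span ends.

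The gene lists, pairs and members were chosen with earlier results of these data known. Regions were named by rule: all called; up to 8 per direction with separated groups, level at or above the members' median and the smallest p; the 10 highest and 3 lowest; 2 by p and 2 by level per mitochondrial list; the fixed pairs; up to 4 with the most genes; the smallest p of each other list; 3 on either side of the limit; and pairs with both genes mitochondrial. Some regions that these lists or the rule select are not reported here. Alternatives were DESeq2 size factors, total counts, TMM from gene-end regions, loess offsets, no filter beyond 1 count, and CPM of 3 in 4 libraries. DESeq2 1.42.0, limma-voom (limma 3.58.1), each library left out and a replicate block were also run. Further ones were limits of 500 bp and 2 kb, and predicted models named Gm or Rik left out.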

Additional observations from a re-analysis of the deposited data

Results flagged for a closer look

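In 134 groups of 4 libraries, at 66 regions and for the share of counts, 11 had 1 library whose gap to the next was above Dixon's critical share of the group's range; chance gives about 1 in 20. OPA1KO replicate 1 was low at Hspd1/Hspe1 (90.7 CPM against 118 to 123 in the other OPA1KO libraries), at Mcm4/Prkdc (124 against 134 to 135) and at Atf5/Il4i1b/Nup62 (99.4 against 109 to 111). OPA1KO replicate 2 was high at Acaa1a/Myd88 (113 against 97.1 to 99.6) and low at Vps25/Wnk4 (1.27 against 2.71 to 2.95). OPA1KO replicate 4 was low at Izumo4/Mob3a (227 against 277 to 283) and at the second region of Trp53/Wrap53 (19.7 against 21.6 to 21.9), and high at Ccdc82/Jrkl (45.1 against 34.5 to 36.1) and at the main region of Ttc19/Zswim7 (55.6 against 48.2 to 49.1). WT replicate 2 was low at Surf1/Surf2 (11.4 against 17.7 to 18.6) and high at the main region of Ttc19/Zswim7 (60.5 against 43.1 to 44.7).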

How the results depend on the processing

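Under every alternative run, 0 shared regions were called, with the smallest adjusted p falling to 0.0728 without WT replicate 2. The number at an unadjusted p under 0.05, 18 higher and 48 lower, was less stable: 38 and 31 with TMM factors from gene-end regions, 33 higher with loess offsets, 31 higher with total counts, and 14 to 33 higher and 36 to 81 lower with 1 library left out. The cause was not tested. The labels do not say whether replicate numbers pair the libraries. Same-numbered libraries had correlations of −0.13 to −0.01 between their deviations, and differently numbered ones −0.24 to 0.22. With 4 libraries per group, such values cannot settle whether the numbers pair them. With a replicate block there were 11 higher and 29 lower. The median log2 fold change lay between −0.04 and 0.00 under all alternatives. Limits of 500 bp and 2 kb gave 1453 and 2936 regions, and leaving out predicted models named Gm or Rik gave 1833. Of 1119 recomputed fold changes at 66 named regions, 71 changed sign, each at a region whose change was within its standard error, and 0 became called.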
